A study of Mus musculus with 12 samples.

Results

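The genes of mitochondrial calcium uptake and release were followed in the lumbar spinal cord of MitoCharc1 mice, a model of Charcot-Marie-Tooth disease type 2A (CMT2A), and of WT mice. The set held 7 genes, Mcu, Micu2, Micu3, Smdt1, Mcur1, Letm1 and Slc8b1, which were chosen by name and matched by mouse symbol to Ensembl identifiers among the 49548 genes of each count file. All 7 were found and all 7 passed the filter on low counts in every comparison. On GRCm38, Mcu (ENSMUSG00000009647) lies on the minus strand at chr10:59446984-59616692, Micu2 (ENSMUSG00000021973) on the minus strand at chr14:57916261-57999262 and Slc8b1 (ENSMUSG00000032754) on the plus strand at chr5:120511168-120534024. Letm1 also lies on chromosome 5, Micu3 on 8, Mcur1 on 13 and Smdt1 on 15. RNA was sequenced from 8 mice labelled CMT2A, called MFN2 here, and from 4 WT mice, all 30 days old and untreated, with 1 library per mouse. MFN2 mice carried the transgene Tg(Eno2-MFN2*R94Q)L51Ugfm on a B6;D2 background, in which the rat Eno2 promoter, active mainly in neurons, drives human MFN2 with the R94Q substitution while the mouse copies of Mfn2 remain. WT mice were labelled C57BL/6 and are described as littermates in the methods of the study. If the labelled strains hold, strain and genotype cannot be told apart in any comparison with WT. Total counts ran from 19359454 to 26738930 per library. Nothing in the labels says how separate the mice of a genotype were beyond their library numbers, so that p-values measure the spread between these libraries.

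The uniporter is a channel of the inner mitochondrial membrane that lets calcium into the matrix along the membrane potential. MCU forms its pore, EMRE (gene Smdt1) joins the pore to its gatekeepers, and the gatekeepers MICU2 and MICU3 act on the calcium level at which the channel opens. MICU2 raises that level, while MICU3, found mainly in neurons, favours uptake. MCUR1 is a regulator of uniporter assembly. Calcium leaves the matrix mainly through NCLX (gene Slc8b1), a sodium-calcium exchanger, and LETM1 exchanges cations for protons across the same membrane. Mitofusin 2, the product of Mfn2, fuses outer membranes and lies at contacts between mitochondria and the endoplasmic reticulum (ER), where calcium passes from store to mitochondrion.

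The libraries are numbered 41 to 47 and 72 to 76. The first run of numbers holds MFN2 libraries 41 to 43 and WT libraries 44 to 47, and the second holds MFN2 libraries 72 to 76 alone, where genotype and run cannot be told apart. Library 43 stood apart. The sum of 10 forebrain neuron genes, led by Camk2a, was 4736 CPM in it against 111 to 209 CPM in the other libraries. CPM are counts scaled to the library total and, unless stated otherwise, adjusted by TMM factors. The sum of 7 caudal Hox genes, which mark the posterior cord, was 23.4 CPM in library 43 and 128 to 177 CPM elsewhere, and its motor neuron genes, led by Prph, summed to 35.5 CPM against 154 to 370 CPM. Fold changes from comparisons that hold library 43 are therefore given with and without it. Xist, transcribed from the inactive X chromosome, was scaled to the library total alone. It was at 0 to 0.262 CPM in libraries 41, 43 and 44 and at 247 CPM or more in the other 9. The labels give no sex. Mouse Mfn2 lay between 190 and 223 CPM in MFN2 mice and between 194 and 228 CPM in WT mice, and the log2 fold change of -0.05 ± 0.065 (SE) had an FDR of 0.733 in edgeR's quasi-likelihood test (-0.06 ± 0.059, FDR 0.553, without library 43). The human transgene was not analysed here.

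The 7 genes spanned a wide range of levels in WT cord. Expressed as CPM per kilobase of annotated exon (RPKM), Smdt1 was at 19.0 ± 0.86 (SD, n = 4), Micu3 at 17.2 ± 1.2 and Micu2 at 14.8 ± 1.1 RPKM. Letm1 followed at 12.7 ± 0.73, Mcu at 4.58 ± 0.31, Mcur1 at 2.66 ± 0.29 and Slc8b1 at 1.30 ± 0.15 RPKM. Each of the first 4 overlapped with its neighbour in this order, with ranges over WT libraries of 17.9 to 19.9 for Smdt1, 15.4 to 18.0 for Micu3, 13.2 to 15.7 for Micu2 and 11.95 to 13.5 RPKM for Letm1. The steps from Letm1 to Mcu, from Mcu to Mcur1 and from Mcur1 to Slc8b1 separated all 4 WT libraries. The pore gene was thus listed below its EMRE subunit and its gatekeepers, and the exchanger Slc8b1 was the lowest of the set. The order among the first 4 depends on the length used: with the longest transcript in place of all exons, Micu3 led at 42.4 RPKM, ahead of Smdt1 at 38.2, Letm1 at 23.3 and Micu2 at 19.6 RPKM, while Mcu, Mcur1 and Slc8b1 kept their places. RNA levels of subunits do not give the makeup of the protein complex.

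**Figure D1:**
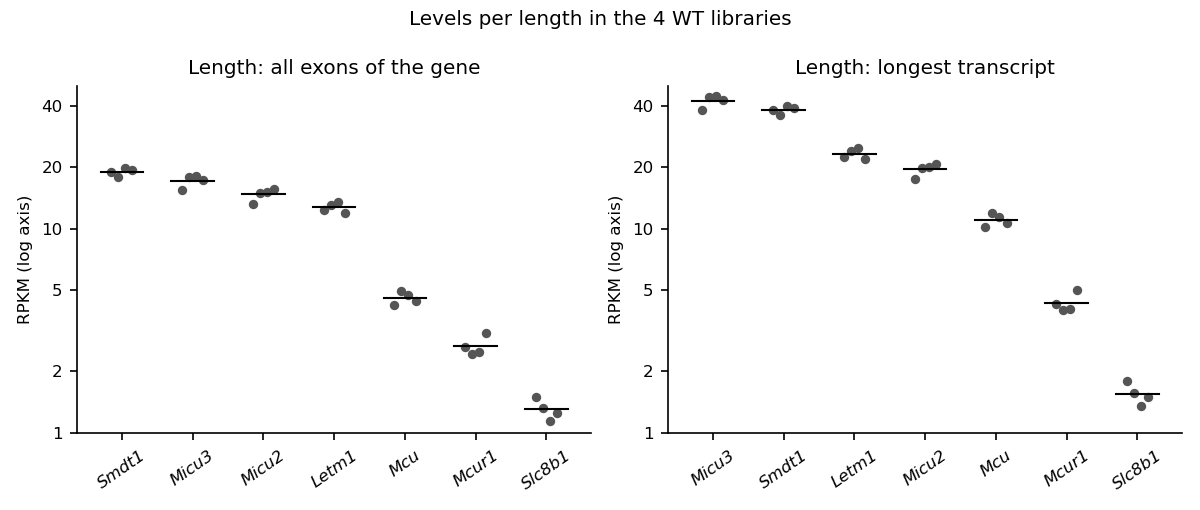
Levels of the 7 genes in the 4 WT libraries, in RPKM on a log axis, with length taken from all exons (left) or from the longest transcript (right). Points are libraries and lines are means. Slc8b1 is lowest and Mcur1 and Mcu come next in both panels, while the order of the other 4 differs between the panels.

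RefSeq promoter entries on GRCm38.p6 were found for 5 of the 7 genes, Mcu, Micu2, Smdt1, Mcur1 and Letm1. The 250 bases before the annotated start are shown for the pore gene Mcu and for the gatekeeper Micu2, the first of which did not pass the test in any comparison while the second was called in libraries 72 to 76 against WT. The difference between their changes was not tested. Capitals mark matches on either strand to the CCAAT box, written CCAAT, or the GC box, written GGGCGG.
Mcu (chr10:59616693-59616942, minus strand): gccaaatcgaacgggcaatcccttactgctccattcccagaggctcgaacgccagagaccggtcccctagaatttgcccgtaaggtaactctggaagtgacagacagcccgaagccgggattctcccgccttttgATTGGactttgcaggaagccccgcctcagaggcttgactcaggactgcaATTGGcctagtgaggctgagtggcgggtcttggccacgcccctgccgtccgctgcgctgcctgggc
Micu2 (chr14:57999263-57999512, minus strand): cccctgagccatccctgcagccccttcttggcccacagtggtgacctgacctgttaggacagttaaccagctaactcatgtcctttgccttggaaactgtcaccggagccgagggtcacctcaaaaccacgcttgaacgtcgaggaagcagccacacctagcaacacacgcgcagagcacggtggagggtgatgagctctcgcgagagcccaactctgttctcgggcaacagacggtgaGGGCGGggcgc
The Mcu window held 2 CCAAT matches, beginning 115 and 66 bases before the start, and 0 GC boxes. The Micu2 window held 0 CCAAT matches and 1 GC box, beginning 11 bases before the start. Of all 32851 promoter entries, 33.8% held CCAAT and 32.7% held GGGCGG in the same 250 bases, so that either match is common. The cAMP response element TGACGTCA, present in 1.55% of entries, was found among the 5 genes only before Smdt1, 1 time, 146 bases before its RefSeq start, and the TATA box TATAAA (12.4% of entries) and the ETS core CCGGAAG (6.91%) were found in 0 of the 5 windows. These matches describe the letters of the windows and do not show binding.

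Across the comparisons, the clearest differences were lower Slc8b1 and lower Micu2 in MFN2 libraries 72 to 76, whereas the pore gene Mcu, Micu3, Mcur1 and Letm1 did not pass the test in any of the 4 comparisons. Between all 8 MFN2 and 4 WT libraries, 0 of 7 genes had an FDR of 0.05 or less, on a background of 0 of 15942 tested genes (0% called), with FDR values from edgeR's quasi-likelihood test adjusted over all genes by Benjamini and Hochberg. At an unadjusted p under 0.05, 1 of the 7 (Smdt1) and 15% of all tested genes were found, and without library 43 0 of the 7 and 21.2% of all tested genes. DESeq2 called 200 genes and limma-voom 0, and neither called a member. Without library 43, 0 of the 7 were called on a background of 0.12% (19 of 15835 genes). In libraries 41 to 43 against WT, 0 of the 7 were called on a background of 0.00658% (1 gene of 15200), and 0 of 7 without library 43 (0.00667%). In libraries 72 to 76 against WT, 2 of the 7 were called, both lower, on a background of 12.7% called lower and 23.8% called in either direction (3746 of 15743 genes, or 2350 without WT library 45). Between MFN2 libraries of the second and the first run, 1 of the 7 was called, on a background of 2.19% (342 of 15633 genes, of which 1.18% of all tested were lower). Without library 43 this became 2 of the 7, on a background of 15.3% (2375 of 15509 genes), with 7.98% lower. Calls were common among all genes in libraries 72 to 76 against WT, so that 2 of 7 is not a result about the set as such. The median log2 fold change there was -0.078 for the 7 genes and -0.00066 for all tested genes. The 2 contrasts against WT share their controls, so that their values are placed side by side without a measure of likeness.

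**Figure D2:**
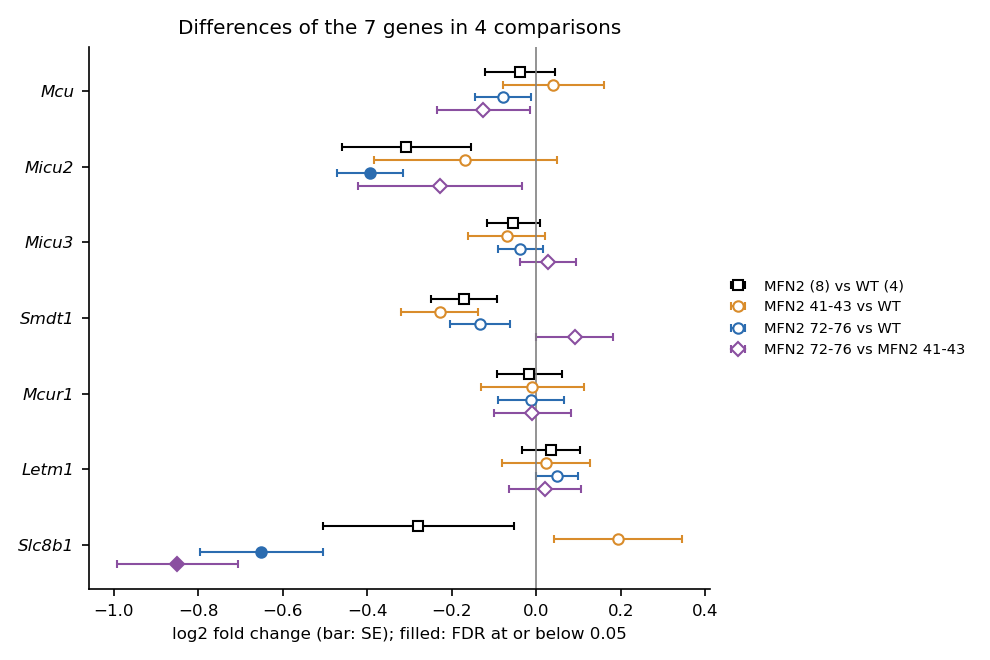
Log2 fold changes of the 7 genes (points, with bars of 1 SE) in the 4 comparisons, with filled symbols for an FDR of 0.05 or less. Filled symbols are seen for Micu2 and Slc8b1 in MFN2 libraries 72 to 76 against WT and for Slc8b1 in libraries 72 to 76 against 41 to 43.

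The pore gene Mcu differed little between genotypes. Scaled by the TMM method, its levels were 29.4, 34.2, 32.9 and 30.7 CPM in WT libraries 44 to 47. They were 30.5, 28.8 and 37.7 CPM in MFN2 libraries 41 to 43 and 27.6, 29.4, 29.5, 31.3 and 32.9 CPM in libraries 72 to 76. The highest value came from library 43, and the other MFN2 libraries overlapped with WT. The log2 fold change was -0.04 ± 0.083 (SE) over all MFN2 mice (FDR 0.837 in edgeR's quasi-likelihood test), -0.08 ± 0.063 without library 43 (FDR 0.458) and -0.08 ± 0.067 in libraries 72 to 76 (FDR 0.4197).

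Smdt1, which encodes EMRE, was at 28.0, 26.4, 29.4 and 28.6 CPM in WT libraries 44 to 47. It was at 25.1, 25.1 and 21.1 CPM in MFN2 libraries 41 to 43 and at 23.5, 24.98, 23.9, 27.4 and 28.8 CPM in libraries 72 to 76. Each of the 3 MFN2 libraries of the first run lay below each WT library, with library 43 lowest, while libraries 75 and 76 reached the WT range. The log2 fold change was -0.17 ± 0.078 over all MFN2 mice (unadjusted p = 0.0469, FDR 0.327 in edgeR's quasi-likelihood test), -0.14 ± 0.066 without library 43 (unadjusted p = 0.0533, FDR 0.244), -0.23 ± 0.091 in libraries 41 to 43 (FDR 0.622) and -0.13 ± 0.072 in libraries 72 to 76 (FDR 0.194). Ranges that did not overlap, with MFN2 lower, were found for 4.29% of all genes in libraries 41 to 43 against WT, and for 7.27% without library 43, where Smdt1 still did not overlap (log2 fold change -0.16, FDR 0.897). The difference of Smdt1 therefore did not pass the threshold in any comparison. Smdt1 shares 245 bases, 16.6% of its exon length, with Pheta2 on the same strand, to which 2 to 16 reads per library were assigned.

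Micu2, the gatekeeper that raises the threshold of the channel, was lower in MFN2 libraries 72 to 76 than in WT. Its levels were 40.7, 46.3, 46.9 and 48.5 CPM in WT libraries 44 to 47 and 30.4, 35.5, 35.9, 32.2 and 39.9 CPM in libraries 72 to 76. All 5 lay below the lowest WT library, and 10.3% of all genes had such a gap on the lower side. The log2 fold change was -0.39 ± 0.079 (SE), with an FDR of 0.00458 in edgeR's quasi-likelihood test. The call was lost (FDR 0.161 at the same fold change of -0.39) when 1 fit over all 12 libraries, library 43 included, supplied the spread. In the first run, Micu2 was at 50.2 and 45.5 CPM in MFN2 libraries 41 and 42, within or above the WT range, and at 25.01 CPM in library 43, the lowest of the 12. There the log2 fold change against WT was -0.17 ± 0.22 (FDR 0.771) with library 43 and 0.08 ± 0.089 (FDR 0.9503) without it.

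MFN2 libraries were also compared between the runs. Lower Micu2 was not seen in every MFN2 library, with 50.2 and 45.5 CPM in libraries 41 and 42 against 40.7 to 48.5 CPM in WT. For libraries 72 to 76 against WT, run and genotype cannot be told apart, because the second run holds no WT library. For Micu2, libraries 72 to 76 against 41 to 43 gave a log2 fold change of -0.23 ± 0.19 (FDR 0.497), and without library 43 one of -0.47 ± 0.095 (FDR 0.00922 in edgeR's quasi-likelihood test). Leaving out library 41 or 42 instead, which keeps library 43, gave -0.03 (FDR 0.939) and -0.13 (FDR 0.741). The size of the difference thus depends on which first-run library is left out, and Micu2 was called only without library 43. Over all 8 MFN2 mice the value was -0.31 ± 0.15 (FDR 0.354), or -0.24 ± 0.12 (FDR 0.269) without library 43, with the lowest, median and highest MFN2 library at 25.01, 35.7 and 50.2 CPM. When only libraries with Xist above 1 CPM were compared, a choice made after the data were seen, Micu2 passed the threshold (log2 fold change -0.37, FDR 0.0413), but that comparison keeps 1 MFN2 library of the first run and 5 of the second. Within libraries 72 to 76 against WT, leaving out WT library 44, the WT library without Xist, gave -0.44 (FDR 0.00178).

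Micu3, the gatekeeper of neurons, was at 94.8 to 111 CPM in WT mice, 91.5 to 108 CPM in MFN2 libraries 41 to 43 and 98.3 to 108 CPM in libraries 72 to 76. These ranges overlapped throughout, and the log2 fold change over all MFN2 mice was -0.05 ± 0.062 (FDR 0.672), or -0.03 ± 0.053 (FDR 0.747) without library 43. Relative to Micu3, per exon length, Micu2 stood at 0.842 to 0.907 in the 4 WT libraries and at 0.616 to 0.740 in libraries 72 to 76, so that the ratio of the gatekeepers separated these groups as Micu2 alone did. The ratio was 1.01 in library 41, 0.844 in library 42 and 0.546 in library 43. Micu3 shares 202 exon bases with Fgf20 on the opposite strand, which is 3.3% of its exon length, and no more than 13 reads per library were assigned to Fgf20.

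Mcur1, the assembly regulator, was at 17.3 to 21.7 CPM in WT mice and 17.1 to 20.6 CPM in the 8 MFN2 mice. The log2 fold change was -0.02 ± 0.077 (FDR 0.929) over all MFN2 mice, -0.04 ± 0.074 (FDR 0.795) without library 43 and -0.01 ± 0.078 (FDR 0.929) in libraries 72 to 76, and its sign turned with library size scaling. Between the runs of MFN2 libraries it was -0.01 ± 0.092 (FDR 0.963). Without library 43, libraries 72 to 76 lay above libraries 41 and 42 (log2 fold change 0.09 ± 0.081, FDR 0.468), as for 18.1% of all genes.

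Slc8b1, the gene of the sodium-calcium exchanger NCLX, showed the largest difference of the 7 genes in libraries 72 to 76, both against WT and against libraries 41 to 43. It was at 5.19, 4.57, 3.94 and 4.33 CPM in WT libraries 44 to 47. It was at 5.11, 5.46 and 4.74 CPM in MFN2 libraries 41 to 43 and at 2.59, 3.01, 3.38, 2.79 and 2.60 CPM in libraries 72 to 76. All 5 libraries of the second run lay below all 7 of the first run, whichever genotype these were. On the lower side, 10.3% of all genes did not overlap between libraries 72 to 76 and WT. That share was 8.63% between libraries 72 to 76 and 41 to 43, and it was not counted against all 7 libraries together. Against WT, libraries 72 to 76 gave a log2 fold change of -0.65 ± 0.15 (SE) with an FDR of 0.00775 in edgeR's quasi-likelihood test, and -0.57 (FDR 0.0161) without WT library 44. In the first run, where both genotypes are present, the log2 fold change of MFN2 against WT was 0.19 ± 0.15 (FDR 0.669), or 0.24 ± 0.18 (FDR 0.935) without library 43. Within the first run Slc8b1 therefore showed no detectable reduction, and the pooled value of -0.28 ± 0.23 (FDR 0.548), or -0.33 ± 0.22 (FDR 0.392) without library 43, combined values of opposite sign.

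The difference of Slc8b1 between the runs was tested within MFN2 mice alone. Libraries 72 to 76 were lower than 41 to 43 by a log2 fold change of -0.85 ± 0.14 (FDR 0.0299 in edgeR's quasi-likelihood test), with no overlap, as for 8.63% of all genes on the lower side. Without library 43 it was -0.89 ± 0.17 (FDR 0.00812), where 16.5% of all genes did not overlap on that side. The call was lost when library 41, 42, 72, 73, 74, 75 or 76 was left out, with log2 fold changes from -0.91 to -0.80 and FDR values of 0.0612 to 0.102. The depth behind these levels is low, at 83 to 143 reads per library in the first run and 51 to 84 in the second. By counting error alone (exact Poisson intervals at 95%), the lowest library of the first run, WT 46, allows 3.17 to 4.85 CPM and the highest of the second, MFN2 74, allows 2.70 to 4.18 CPM, so that the intervals of these neighbouring libraries overlap.

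Relative to the pore gene, per exon length, Slc8b1 stood at 0.240 to 0.354 of Mcu in WT mice, at 0.252 to 0.380 in MFN2 libraries 41 to 43 and at 0.158 to 0.229 in libraries 72 to 76. Letm1, the cation-proton exchanger, showed no such pattern. It was at 115 to 131 CPM in WT mice, 111 to 142 CPM in libraries 41 to 43 and 124 to 134 CPM in libraries 72 to 76, with a log2 fold change of 0.05 ± 0.050 (FDR 0.512) in the last group against WT. Over all MFN2 mice it was at 0.03 ± 0.068 (FDR 0.816), and at 0.06 ± 0.058 (FDR 0.575) without library 43.

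**Figure D3:**
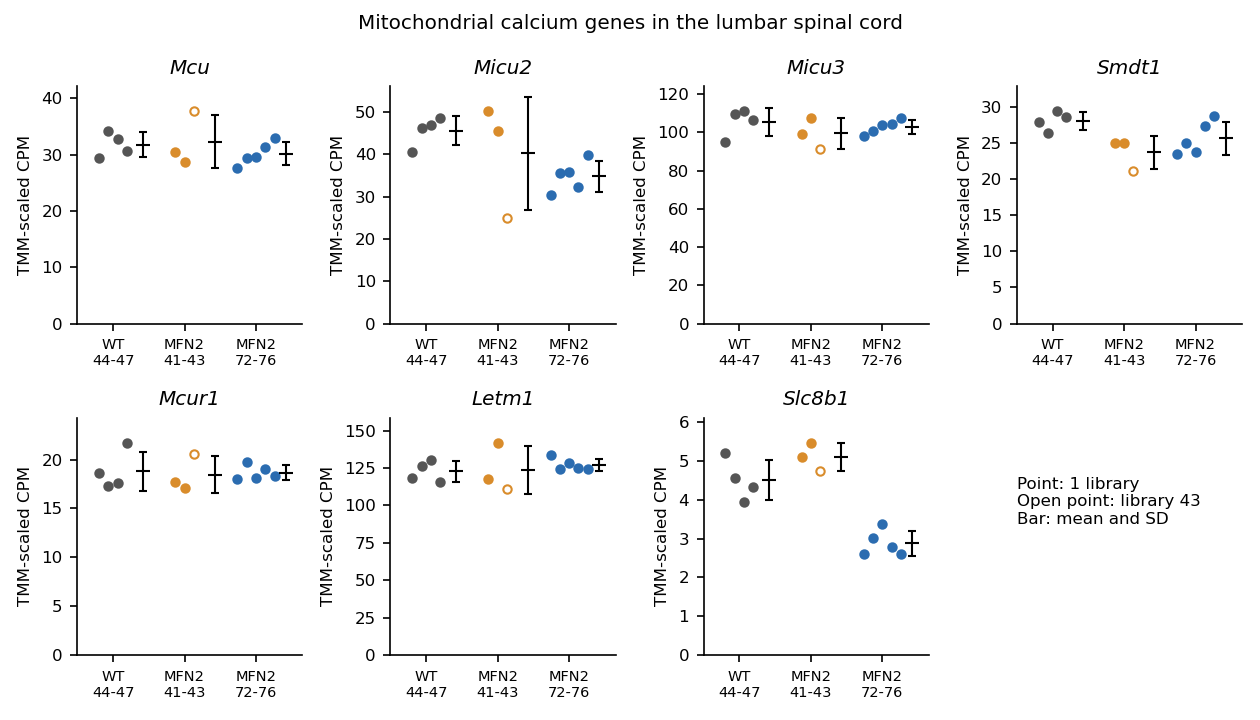
TMM-scaled CPM of each of the 7 genes in WT libraries 44 to 47, MFN2 libraries 41 to 43 and MFN2 libraries 72 to 76. Points are libraries, the open point is library 43 and bars are the mean and SD. Slc8b1 is lower in all 5 libraries 72 to 76 than in all others, Micu2 is lower there than in WT and in libraries 41 and 42, and the other genes overlap between WT and libraries 72 to 76.

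**Figure D4:**
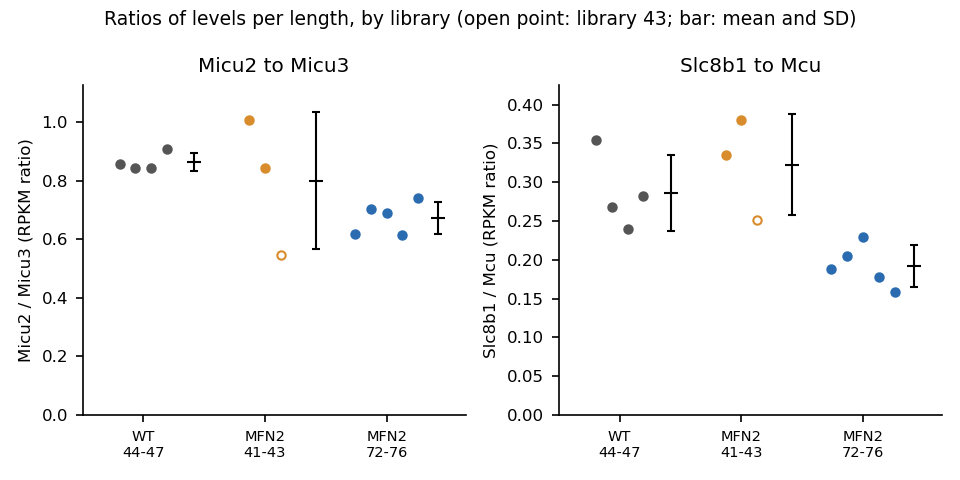
Ratio of Micu2 to Micu3 and of Slc8b1 to Mcu, each from RPKM, by library, with the mean and SD of each group as bars and library 43 as an open point. WT libraries lie between 0.842 and 0.907 in the first ratio and between 0.240 and 0.354 in the second, above libraries 72 to 76 in both.

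Other genes of mitochondrial calcium handling were read from 5 lists, with 1 more of mitochondrial content genes as a reference, in libraries 72 to 76 against WT (background 12.7% called lower and 11.1% higher). Of 6 partners of the uniporter and proteases of EMRE, 0 were lower and 1 higher. The gene that rose was Mcub, which encodes a poorly conducting relative of the pore, at 1.10 to 3.01 CPM in WT mice and 2.60 to 3.94 CPM in libraries 72 to 76 (log2 fold change 0.78 ± 0.25, FDR 0.0410). The ranges of Mcub overlapped, and 21 to 104 reads per library lay behind its values. In libraries 41 to 43 its log2 fold change was 0.58 ± 0.39 (FDR 0.639), or 0.66 ± 0.40 (FDR 0.904) without library 43. The most abundant genes of the list were Slc25a23, a carrier of adenine nucleotides, and Afg3l2, a protease that processes EMRE, and neither passed the test.

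Among 10 genes of the outer membrane and of calcium release from the ER, 1 was lower and 4 were higher. Ryr3, a ryanodine receptor, rose, at 53.0 to 68.8 CPM in WT mice and 80.3 to 109 CPM in libraries 72 to 76 (log2 fold change 0.59 ± 0.094, FDR 0.00173 in edgeR's quasi-likelihood test). Itpr2, a receptor for inositol trisphosphate, rose by a log2 fold change of 0.34 ± 0.091, and Ryr2 by 0.19 ± 0.055. Vdac1, the channel of the outer membrane, fell by 0.21 ± 0.042 on the log2 scale, with 221 to 230 CPM in WT mice and 184 to 201 CPM in libraries 72 to 76. In libraries 41 to 43 against WT, 0 of the 10 were called with or without library 43, where calls were rare among all genes (0.00658% and 0.00667%). The log2 fold change of Ryr3 there was -0.06 with library 43 and -0.21 without it, and that of Vdac1 was 0.01 and -0.05. Between the runs of MFN2 libraries, Ryr3 did not pass the threshold with library 43 (log2 fold change 0.65, FDR 0.0604) and passed it without (0.81, FDR 0.00394).

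Of 11 calcium pumps and exchangers of the ER and plasma membrane, 0 were lower and 1 was higher, Atp2b1, a plasma membrane pump (log2 fold change 0.24 ± 0.057, FDR 0.0101). The most abundant, Atp2b2 and the ER pump Atp2a2, were at 0.01 ± 0.047 and -0.05 ± 0.043 and did not pass the test. In libraries 41 to 43 against WT, 0 of the 11 were called with or without library 43. Calls were rare among all genes there (0.00658% and 0.00667%). The log2 fold change of Atp2b1 there was 0.90 (FDR 0.622) with library 43 and 0.13 (FDR 0.908) without it. Of 14 enzymes, carriers and adaptors that respond to calcium, 4 were lower and 2 higher. Efhd1, a calcium-binding mitochondrial protein, fell by 0.53 ± 0.11 on the log2 scale, Rhot2, an adaptor of mitochondrial transport, by 0.40 ± 0.078 and Gpd2, the glycerol phosphate dehydrogenase of the inner membrane, by 0.23 ± 0.044. Idh3g, a subunit of the calcium-sensitive isocitrate dehydrogenase, rose by 0.21 ± 0.053. In libraries 41 to 43 against WT, 0 of the 14 were called with or without library 43. The log2 fold changes there, with and without it, were -0.40 and -0.07 for Efhd1 and -0.12 and -0.13 for Rhot2. They were 0.05 and -0.02 for Gpd2 and -0.14 and -0.09 for Idh3g. Between the runs of MFN2 libraries, Idh3g passed the threshold with and without library 43 (0.34 and 0.30). Efhd1 and Gpd2 passed only without it, and Rhot2 in neither. Of 6 tested genes of other ion exchange and the permeability transition, 1 was lower, Ghitm, a proton-linked exchanger (log2 fold change -0.16 ± 0.047, FDR 0.0296). The other abundant gene of that list, Tmem65, was at 0.06 ± 0.050 and did not pass the test.

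Of 9 tested genes used as a reference for mitochondrial content, 3 were lower and 0 higher in libraries 72 to 76 than in WT: Cox4i1, a subunit of cytochrome c oxidase, at -0.36 ± 0.053, Timm23, of the inner membrane translocase, at -0.32 ± 0.086, and Cs, citrate synthase, at -0.18 ± 0.045. The other 6 did not pass the test, with log2 fold changes from -0.11 for Sdha to 0.10 for Uqcrc1. The part of mitochondrial content in the results of Micu2 and Slc8b1 was not tested. In libraries 41 to 43 against WT, where 0.00658% of all genes were called, 0 of the 9 were.

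Cell type markers also differed between the groups, and in bulk RNA fewer cells of a type and less RNA per cell cannot be told apart. Of 6 astrocyte genes, 4 were lower in libraries 72 to 76 than in WT, on the background of 12.7% of all genes called lower and 11.1% higher that holds for each of these lists. Their sum, led by Slc1a2, was 6992, 7751, 6774 and 7087 CPM in WT libraries 44 to 47, 8465, 5978 and 5761 CPM in libraries 41 to 43, and 4963, 5327, 5110, 4995 and 6380 CPM in libraries 72 to 76. Of 5 microglial genes, led by Csf1r, 4 were lower, and their sum was 93.8, 126, 108 and 114 CPM in WT libraries, 145, 90.7 and 154 CPM in libraries 41 to 43, and 87.0, 83.4, 85.7, 74.02 and 92.2 CPM in libraries 72 to 76. In both lists 0 genes were at 0 in any library, and libraries 72 to 76 lay below WT. The part of these cell types in the lower Micu2 and Slc8b1 was not tested. Oligodendrocyte genes, led by Mbp, had 0 of 5 called, with sums of 13643 to 17908 CPM in WT mice and 11008 to 17112 CPM in libraries 72 to 76. Their sum was 4667 CPM in library 43 against 11008 CPM or more in all others. Neuronal genes, led by Snap25, had 1 of 5 lower and 1 higher, and motor neuron genes 0 of 6 in either direction, with sums of 178 to 370 CPM in WT mice and 200 to 263 CPM in libraries 72 to 76. Of 8 tested forebrain neuron genes, 0 were lower and 1 was higher, Nrgn, a calmodulin-binding protein of neurons (log2 fold change 0.57 ± 0.12, FDR 0.00548). The neuronal and motor neuron sums overlapped between WT and libraries 72 to 76. The part of neurons or of oligodendrocytes in the lower Micu2 and Slc8b1 was not tested.

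**Figure D5:**
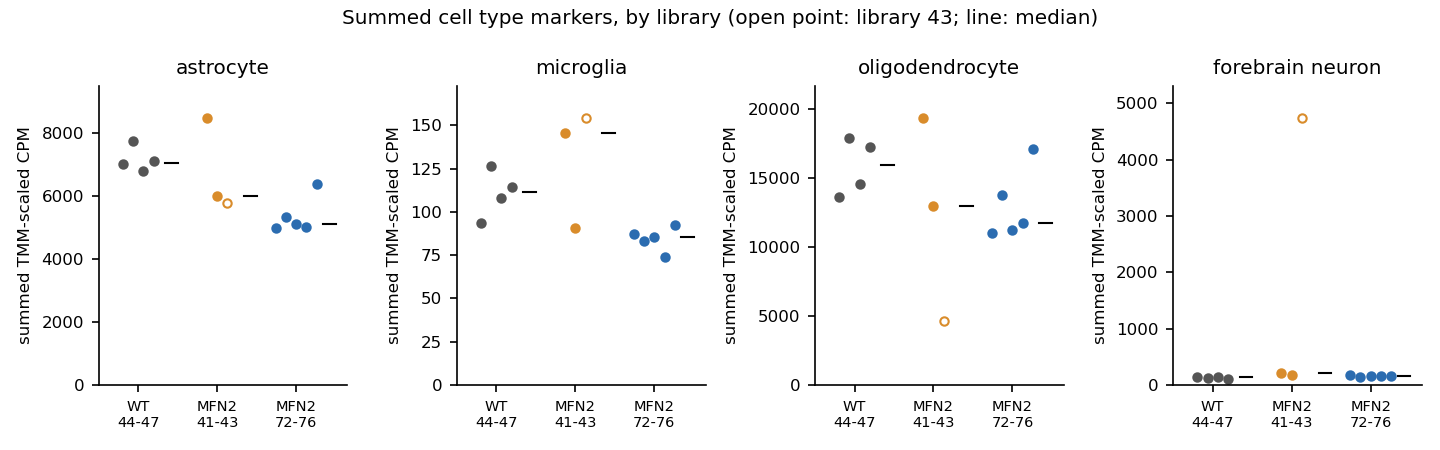
Summed TMM-scaled CPM of astrocyte, microglial, oligodendrocyte and forebrain neuron genes by library, with medians as lines and library 43 as an open point. Astrocyte and microglial sums of libraries 72 to 76 lie below those of WT libraries, and library 43 is lowest in oligodendrocyte genes and reaches 4736 CPM in forebrain genes.

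For each of the 7 genes, the 3 most alike genes were taken by Pearson's r of log2 CPM over the 11 libraries without library 43, as a description over libraries that share their run and genotype. Slc8b1 was most like Exosc3 (r = 0.97), an exosome subunit, G6pc3 (0.95) and Ildr2 (0.95), and with library 43 included these values were 0.90, 0.71 and 0.41. Micu2 was most like Derl1 (0.97), of ER-associated degradation, Tgfb3 (0.97) and Nkx6-2 (0.97), a transcription factor of oligodendrocytes, and with library 43 included these values were 0.95, 0.89 and 0.98. Letm1 was most like Chchd4 (0.98), of the import pathway of the intermembrane space, Pip5k1c (0.90) and Lrpap1 (0.89). With library 43 included, these values were 0.35, -0.33 and 0.57. Mcu was most like Pelo, Adamtsl5 and Sfn, at 0.88 to 0.90, and with library 43 included these values were 0.51, 0.05 and 0.27. Micu3 was most like En1, 2410004B18Rik and Fmn1, Smdt1 like Cdk5, Slc16a6 and Zdhhc3, and Mcur1 like Amn1, Srpk3 and Stard9. With library 43 included, these values were 0.91 to 0.94 for Micu3, 0.80 to 0.94 for Smdt1, and 0.94, 0.28 and 0.12 for Mcur1. Of the 7 genes, none was among the most alike of another.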

How the data were processed

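RNA of the lumbar cord was sequenced as paired-end reads on a NextSeq 500. After trimming, the authors mapped reads with STAR (GRCm38), and for each library they deposited raw read counts per Ensembl gene as whole numbers. The submitters' processing notes name bcl2fastq, STAR, edgeR and GRCm38.p6. Which tool counted the reads, and with which strand setting, is not given in the sources used here, and the kit is called SMARTER mRNA-Seq in the labels and a stranded total RNA kit in the methods. Counts of genes that overlap others are therefore uncertain.

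Of the 49548 genes, 49289 matched a symbol in GENCODE release M21, which also gave lengths, and 0 lay on the mitochondrial chromosome. Genes above 1 CPM, by library total alone, in at least 3 of the libraries compared were tested in edgeR 4.0.16 under R 4.3.3. After TMM scaling, its legacy robust quasi-likelihood test was used, with Benjamini-Hochberg FDR over all genes at 0.05. SEs were derived from the F statistic, and log2 CPM used a prior count of 2. DESeq2 1.42.0, limma 3.58.1, other filters and scalings, 1 fit over all 12 libraries, a run covariate and leaving out each library in turn were the alternatives. The fit was also run on simulated data, from which no conclusion is drawn here. Promoter sequences came from RefSeq (GRCm38.p6).

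The 7 genes and all lists were chosen with earlier results of these data known. In all comparisons the 7 genes were named. Of each pathway list, up to 4 genes past the threshold with the largest change in libraries 72 to 76 against WT were named, or the 2 most abundant where fewer than 2 passed. Xist, Cldn5, Nrgn, Sdha and Uqcrc1 are outside this rule and were named after their values were seen. Some genes of the lists are not reported here and were left out of their counts and sums.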

Additional observations from a re-analysis of the deposited data

How the results depend on the processing

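Lower Slc8b1 in MFN2 libraries 72 to 76 against WT passed the threshold in all 18 alternatives run (FDR 0.00136 to 0.0246) and lower Micu2 in 17 of 18, with the exception of 1 fit over all 12 libraries (FDR 0.161), where 1 member and 1224 genes were called. The causes of the changes below were not tested. Between all MFN2 and WT libraries, DESeq2 called 200 genes, and the libraries with Xist above 1 CPM, chosen after the data were seen, gave 2206 genes and 1 member. Leaving out a library gave 0 to 19 genes (19 without library 43) and 0 members. In libraries 41 to 43 against WT, the 1 call became 0 without a filter, with limma-voom and with 1 fit over all 12 libraries, 5 with DESeq2, and 0 to 2 with a library left out. In libraries 72 to 76 against WT, leaving out a library gave 2350 (without WT library 45) to 4517 genes and 2 members throughout. Between MFN2 runs, DESeq2 called 1794 genes, 1 fit over all 12 libraries 1339, and the libraries with Xist 691, where library 42 alone stands for the first run and is assumed to vary like the others. Leaving out a library there gave 31 (without library 74) to 2375 genes (without library 43) and 0 to 2 members.

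Some log2 fold changes that had not passed the threshold changed sign. With library size scaling, log2 fold changes were 0.012 for Mcu and 0.032 for Mcur1 over all libraries, 0.034 for Micu3 and 0.058 for Mcur1 in libraries 72 to 76 against WT, and 0.067 for Mcur1 between runs. With the run as a covariate, Mcu was at 0.023 and Slc8b1 at 0.18 over all libraries. Between runs, Mcur1 was at 0.00069 with RLE size factors, 0.0030 with DESeq2, 0.0044 with limma-voom, 0.016 with 1 fit over all 12 libraries and 0.12 in libraries with Xist, where Mcu was at 0.060, Micu3 at -0.072 and Letm1 at -0.17. With a library left out, Mcur1 ran from -0.054 to 0.060 over all libraries, from -0.10 to 0.067 in libraries 41 to 43 against WT, from -0.051 to 0.065 in libraries 72 to 76 against WT and from -0.069 to 0.092 between runs. In libraries 41 to 43 against WT, Mcu ran from -0.092 to 0.12, Micu2 from -0.35 to 0.079 and Letm1 from -0.089 to 0.088, and between runs Mcu ran from -0.21 to 0.016, Micu3 from -0.016 to 0.081 and Letm1 from -0.037 to 0.13. No paired analysis was possible because the genotypes have no replicate number in common, only library numbers. Slc8b1 rests on 51 to 143 reads per library and Mcub on 21 to 104.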

Other observations

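Markers of other cells that a dissected cord can carry varied from library to library. Skeletal muscle genes, led by Myh4, summed to 240 CPM in WT library 47 and 275 CPM in MFN2 library 73 against 1.70 to 69.2 CPM in the others. In libraries 72 to 76 against WT, where 12.7% of all genes were called lower and 11.1% higher, lists of precursor and endothelial genes were also read. Precursors of oligodendrocytes, led by Gpr17, summed to 231 to 265 CPM in libraries 72 to 76 and 190 to 223 CPM in WT mice, and 1 of 3 genes, Gpr17, was higher in edgeR's quasi-likelihood test (log2 fold change 0.41, FDR 0.00756). Of 4 endothelial genes, led by Flt1, 1 was lower, Cldn5 (log2 fold change -0.82, FDR 0.00685), and their sums overlapped at 130 to 163 CPM against 116 to 153 CPM in WT mice.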
